A study of Mus musculus with 4 samples.

Results

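The genes described are 55 subunits of chromatin remodelling complexes and histone chaperones, taken from a list of gene symbols. Each symbol matched 1 gene ID, and the 55 genes hold 279 of the 48574 transcript models and are 55 of the 17945 genes in the deposited table. All samples were mouse oocytes at the germinal vesicle stage, in which the cell is held in the first meiotic prophase with an intact nucleus. They came from females at postnatal day 20 that had received no hormone priming and were kept in milrinone, an inhibitor that prevents meiotic resumption. Cumulus cells had been removed. A bright-field image of each living oocyte was passed to the Fluo-Cast-Bright classifier, which assigned it to the class with a non-surrounded nucleolus (NSN) or to the class with a surrounded nucleolus (SN), where a ring of condensed chromatin encloses the nucleolus. Each class had 2 libraries and 15 oocytes, 30 oocytes in all, and both classes shared stage, age, medium and capture of RNA with oligo(dT). No strain, genotype or transgene is named in the labels. The class is a prediction from an image, and the labels do not tell whether the replicates are separate animals, so the p-values cover the spread of these libraries alone, possibly a technical one.

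Chromatin remodelers use ATP to slide, evict or exchange nucleosomes. SWI/SNF (BAF) complexes are built around one of a pair of alternative ATPases, Smarca2 (BRM) or Smarca4 (BRG1), a shared core, and subunits that set the canonical (cBAF), PBAF or non-canonical (ncBAF) form. ISWI complexes space nucleosomes, NuRD joins a CHD ATPase to histone deacetylases, INO80 and SRCAP exchange the histone variant H2A.Z, and the chaperones FACT and CAF-1 handle histones without an ATPase of their own. In growing oocytes, chromatin compaction around the nucleolus goes with a fall in transcription, and the mRNA stored by then serves meiosis and the early embryo. Maternal Smarca4 is known to be needed for activation of the mouse embryonic genome.

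The levels of paralogous subunits were far apart, and the promoters of the 2 pairs furthest apart among those with both members above 1 TPM (transcript abundance per length, scaled to a common total) are shown first. Each line is the RefSeq promoter window of the gene in GRCm38.p6, most of it upstream of the gene start, read 5′ to 3′ on the gene's strand. Capitals mark GGGCGG, the GC box bound by SP and KLF factors, on either strand (so also CCGCCC), and, in Rbbp4, the E-box CACGTG. The capital runs do not overlap. The windows are chr19:26604910-26605209 (plus strand) for Smarca2, chr9:21615919-21616218 (plus) for Smarca4, chrX:162760122-162760421 (plus) for Rbbp7 and chr4:129335321-129335620 (minus) for Rbbp4.
Smarca2: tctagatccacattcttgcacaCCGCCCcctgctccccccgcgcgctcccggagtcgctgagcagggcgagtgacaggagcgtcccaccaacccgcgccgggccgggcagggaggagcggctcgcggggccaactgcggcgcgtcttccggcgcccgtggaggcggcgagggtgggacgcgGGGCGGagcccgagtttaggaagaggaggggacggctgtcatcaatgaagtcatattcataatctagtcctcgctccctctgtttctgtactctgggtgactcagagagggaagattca
Smarca4: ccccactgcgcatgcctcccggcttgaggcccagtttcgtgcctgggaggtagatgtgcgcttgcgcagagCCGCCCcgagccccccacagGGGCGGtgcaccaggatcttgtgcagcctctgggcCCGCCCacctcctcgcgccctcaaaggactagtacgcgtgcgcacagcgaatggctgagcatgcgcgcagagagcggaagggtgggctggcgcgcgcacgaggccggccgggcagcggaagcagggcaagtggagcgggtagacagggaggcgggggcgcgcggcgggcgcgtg
Rbbp7: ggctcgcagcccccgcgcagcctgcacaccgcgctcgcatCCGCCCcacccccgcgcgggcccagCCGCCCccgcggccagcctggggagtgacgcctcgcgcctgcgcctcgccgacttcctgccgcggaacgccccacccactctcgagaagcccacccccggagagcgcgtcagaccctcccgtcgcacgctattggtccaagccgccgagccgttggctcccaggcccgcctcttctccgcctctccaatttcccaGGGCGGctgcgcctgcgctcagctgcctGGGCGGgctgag
Rbbp4: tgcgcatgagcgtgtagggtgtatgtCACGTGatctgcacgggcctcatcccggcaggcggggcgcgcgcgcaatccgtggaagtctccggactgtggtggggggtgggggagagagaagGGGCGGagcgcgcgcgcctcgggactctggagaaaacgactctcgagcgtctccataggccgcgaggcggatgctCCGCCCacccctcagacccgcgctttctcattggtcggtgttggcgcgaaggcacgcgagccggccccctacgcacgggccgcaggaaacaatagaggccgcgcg
All 4 windows, of the high as of the low member of each pair, held a GC box. RefSeq gave 55 windows for 45 of the 55 genes, and GGGCGG was present on either strand in 49 windows (89.1%), against 57.7% of the 13702 windows of all genes tested and 35.7% of all 32851 windows. The remodeler windows were also richer in CpG, with a median of 30 CpG dinucleotides and 65.7% G+C, against 19 and 59.7% for the genes tested, and a GC box follows from such a composition more often. Searched on either strand, TATAAA was in 7.27% of the remodeler windows and 8.14% of windows of genes tested, CACGTG in 9.09% and 9.41%, and TAATTG, the core of sites bound by oocyte homeobox factors such as NOBOX, in 3.64% and 5.51%. These are matches of letters and not binding sites, and the motifs were chosen with the expression values known.

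Libraries held 32307398 and 32541920 estimated counts in NSN and 37023401 and 36922573 in SN, so that 3 counts stand for 0.081 to 0.0929 CPM (counts scaled to a common total). Replicates of a class differed by more than sampling noise, with a chi-square per degree of freedom of 18.5 in NSN and 30.9 in SN. The oocyte markers summed to between 31373.5 and 35142.1 TPM, none of the 10 at 0. The 14 granulosa and cumulus markers summed to 56.8 and 47.1 TPM in NSN and 40.2 and 48.3 TPM in SN, with 9 of 14 under 1 TPM. Of these markers Cyp19a1, at 24.8 to 28 TPM, gave the largest part, Nr5a2 was at 6.3 to 8.87 TPM, Inha was at 12.3 TPM in NSN replicate 1 and 3.48 to 7.02 TPM in the other libraries, and Foxl2 and Amh were at or near 0; their part in the results was not tested. Markers of theca and stroma summed to 3.51 to 5.29 TPM. Markers of blood, immune and endothelial cells summed to 9.32 and 10 TPM in NSN and to 12.6 and 15.5 TPM in SN, where Hba-a1 (0 and 0 TPM in NSN, 1.87 and 2.75 TPM in SN) and Lyz2 (0 and 0.05 against 1.14 and 1.52 TPM) were seen mainly in SN, and their part in the differences between classes was not tested.

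In TPM, a unit per transcript length that lets genes be set side by side, the subunits spanned more than 4 orders of magnitude. Rbbp7, a histone-binding WD40 protein of NuRD that is also found in other histone deacetylase complexes, stood apart with 1280 and 1522 TPM in NSN and 1462 and 1492 TPM in SN. It ranked 112 among all genes and made up 51.1% to 57.3% of the summed TPM of the 55 genes in each library. Behind it came Ruvbl2, Smarcb1, Smarca2 and Mta3 at means of 130.9, 117.1, 97.7 and 96.5 TPM. Ruvbl2 is an AAA+ ATPase of INO80, SRCAP and EP400, and Smarcb1 is a SWI/SNF core subunit. In all, 3 genes lay above 100 TPM, 25 between 10 and 100, 20 between 1 and 10 and 7 at or under 1, and their median was 10.3 TPM, where that of the genes tested was 6.23. A level in TPM or CPM is a share of the captured RNA. Less RNA per oocyte and fewer oocytes in a library cannot be told apart in such data.

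**Figure D1:**
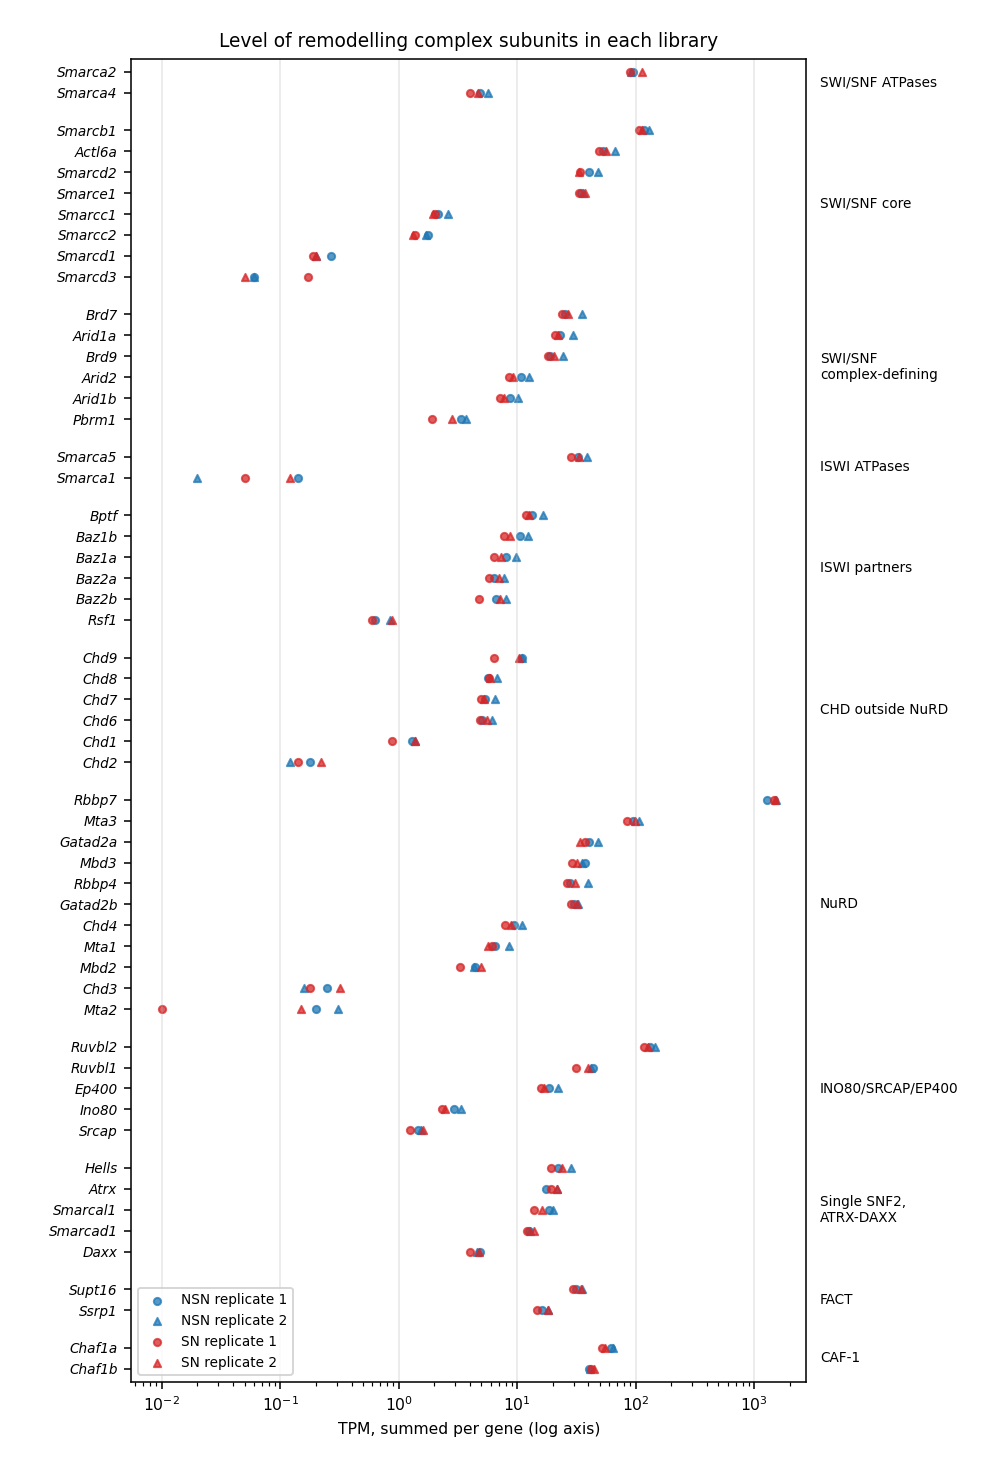
TPM per gene on a log axis for the 55 subunits, grouped by complex and ordered by mean level within each group, with 1 symbol per library (circles replicate 1, triangles replicate 2, blue NSN, red SN). Rbbp7 lies above the other 54 genes in all 4 libraries, and Smarcd3, Smarca1, Mta2, Chd2, Smarcd1, Chd3 and Rsf1 lie below 1 TPM.

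Among the SWI/SNF ATPases, Smarca2 was at 95.6 and 91.8 TPM in NSN and 89.8 and 113.8 TPM in SN. Smarca4 was at 4.85 and 5.64 TPM in NSN and 3.98 and 4.64 TPM in SN. Smarca2 was thus the higher in all 4 libraries, 20.5-fold by the means and at least 16.3-fold in any library, an order that depended on the transcript models counted, as described further on. The core subunit Smarcb1 was at 118.4 and 128.7 TPM in NSN and 107.4 and 114.0 TPM in SN, the highest of its group. Of the interchangeable BAF60 subunits, Smarcd2 was at 40.2 and 48.0 TPM in NSN and 34.1 and 33.6 TPM in SN. Smarcd1 stayed at 0.19 to 0.27 TPM, on 14 to 19 counts, and Smarcd3 at 0.05 to 0.17 TPM, on 2, 2, 7 and 2 counts, so that Smarcd2 supplied 99.0% to 99.5% of the set. Smarcd3, known as the muscle and neural member, was the only 1 of the 55 genes under the filter on low counts. The scaffolds Smarcc1 (1.95 to 2.60 TPM) and Smarcc2 (1.32 to 1.78 TPM) were both low and close, with Smarcc1 the higher in each library by 1.2-fold to 1.54-fold.

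Subunits that define the SWI/SNF forms were nearer to each other. Arid1a, of cBAF, exceeded its paralog Arid1b in every library by 2.65-fold to 2.93-fold, with 20.9 to 29.5 TPM against 7.12 to 10.2 TPM. Brd7, a bromodomain subunit of PBAF, was at 25.2 and 35.0 TPM in NSN and 24 and 27.0 TPM in SN, the highest of the group, and Brd9, which marks ncBAF, reached 18.3 to 24.6 TPM. Pbrm1, the polybromo subunit of PBAF, was the lowest of the 6 at 3.36 and 3.68 TPM in NSN and 1.91 and 2.80 TPM in SN.

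In the ISWI group, Smarca5 (SNF2H) was at 32.4 and 38.7 TPM in NSN and 28.2 and 33.4 TPM in SN. Its paralog Smarca1 (SNF2L) was at 0.14, 0.02, 0.05 and 0.12 TPM in the same order, on 13, 2, 5 and 13 counts, and Smarca5 made up at least 99.6% of the pair. Bptf, the large NURF subunit that reads methylated histone H3, was the most abundant partner at 13.3 and 16.5 TPM in NSN and 11.9 and 12.7 TPM in SN. Baz1b exceeded Baz1a in each library by 1.19-fold to 1.33-fold, whereas Baz2a and Baz2b changed order between libraries, with ratios from 0.961 to 1.22, and could not be ranked. Of the CHD ATPases outside NuRD, Chd9, mostly on short models, was highest at 11.0 and 10.9 TPM in NSN and 6.36 and 10.4 TPM in SN, and Chd6, Chd7 and Chd8 lay between 4.86 and 6.82 TPM. Chd1 was at 0.87 to 1.38 TPM and Chd2 at 0.12 to 0.22 TPM.

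NuRD transcripts showed one dominant paralog in most sets. Its ATPase was represented by Chd4, at 9.33 and 11.1 TPM in NSN and 7.88 and 8.85 TPM in SN, while Chd3 stayed at 0.16 to 0.32 TPM on 27 to 63 counts. The scaffold Mta3 was at 95.2 and 107.1 TPM in NSN and 84.8 and 99.1 TPM in SN. Mta1 reached 5.72 to 8.61 TPM, and Mta2 was at 0.20, 0.31, 0.01 and 0.15 TPM on 13, 19, 1 and 12 counts, so that Mta3 held 92.3% to 94.4% of the set, almost all of it on short models. Mbd3, the methyl-CpG-binding-domain protein that does not itself need methylated DNA, was at 29.3 to 37.2 TPM and its paralog Mbd2, which binds methylated CpG, at 3.28 to 4.95 TPM. Rbbp4, at 27.9 and 39.7 TPM in NSN and 26.4 and 30.7 TPM in SN, was 38.4-fold to 55.5-fold below Rbbp7. Gatad2a and Gatad2b were the exception within NuRD, with a ratio of only 1.07 to 1.5 between them. How reads that match near-identical copies, such as Rbbp4 and Rbbp7 or their pseudogenes, were divided by the upstream software was not tested.

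The AAA+ pair Ruvbl1 and Ruvbl2 form mixed rings in the cell, yet Ruvbl2 was at 132.8 and 145.1 TPM in NSN and 118.6 and 127.2 TPM in SN where Ruvbl1 was at 31.3 to 43.4 TPM, a ratio of 3.06 to 3.79. The scaffolding ATPases Ino80, Srcap and Ep400 had means of 2.77, 1.46 and 18.4 TPM. Hells (LSH), a SNF2 protein needed for DNA methylation at repeats, had the highest mean of the single ATPases. It was at 22.1 and 28.5 TPM in NSN and 19.3 and 24 TPM in SN. Atrx was slightly above it in SN replicate 1, at 19.4 TPM. FACT consists of Supt16 and Ssrp1, at 29.6 to 35.5 TPM and 14.8 to 18.2 TPM. CAF-1 consists of Chaf1a, at 51.8 to 64.5 TPM, and Chaf1b, at 40.6 to 44.2 TPM, together with Rbbp4. Over the 16 paralog sets, 15 had the same top member above the next in all 4 libraries, the exception being Baz2a and Baz2b, and in 8 sets the lowest member was at least 5-fold below the top. These ratios are descriptions of 4 libraries, with no test.

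**Figure D2:**
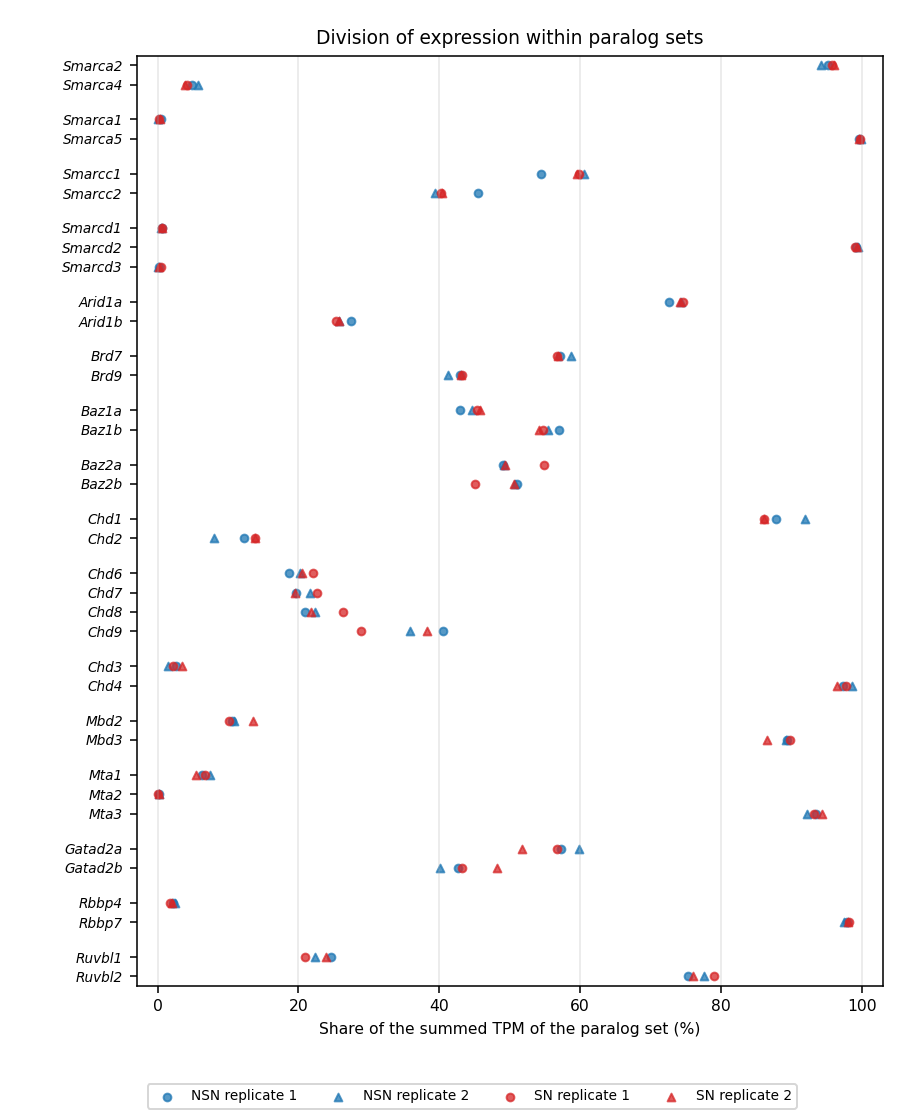
Share of the summed TPM of each paralog set, in percent, for every member in each of the 4 libraries (circles replicate 1, triangles replicate 2, blue NSN, red SN). Smarca5, Smarcd2, Rbbp7 and Chd4 hold over 96% of their sets in every library, and Baz2a and Baz2b exchange places.

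The order of Smarca2 and Smarca4 rested on short transcript models of Smarca2. Models with an effective length under 50% of the longest model carried 97.2% of the Smarca2 TPM, 92.4 and 88.1 TPM in NSN and 87.2 and 110.4 TPM in SN. The longer models, among them the curated full-length one, summed to 2.94 and 2.67 TPM in NSN and 2.25 and 3.15 TPM in SN, below Smarca4 in every library, with means of 2.75 ± 0.388 (SD, n = 4) and 4.78 ± 0.684 TPM. In CPM, which is not corrected for length, the same gene exceeded Smarca4 as well (103.1 to 140.6 against 15.0 to 17.4 CPM), again with the short models included. The most abundant long model (XM_006527282.4) was at 2.62 and 1.46 TPM in NSN and 1.83 and 2.35 TPM in SN, and the most abundant short model (XM_030251051.1) at 28.5 and 28.4 TPM in NSN and 33.6 and 41.3 TPM in SN.

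Matched through its Ensembl ID to GENCODE M21 on GRCm38, the short model starts at chr19:26747603, 142551 bases downstream of the start of the curated long model at chr19:26605052. It therefore does not begin in the promoter window shown above. Its coding sequence has 708 bases against 4749, and its start codon, at chr19:26751851, lies in coding exon 27 of 32 of the long model (chr19:26751824-26752041, plus strand, 218 bases). A total of 4041 coding bases of the long model precede it, a multiple of 3, so that both models share the reading frame. The exon is printed because it carries that codon, with the ATG in capitals.
Smarca2 coding exon 27: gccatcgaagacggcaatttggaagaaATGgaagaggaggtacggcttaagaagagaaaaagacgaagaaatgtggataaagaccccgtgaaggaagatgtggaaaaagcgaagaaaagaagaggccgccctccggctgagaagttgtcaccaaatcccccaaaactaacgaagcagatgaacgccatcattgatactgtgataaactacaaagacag
As background, the ATPase domain of the Smarca2 protein lies ahead of a bromodomain near its carboxyl end. Which domains the short frame encodes was not computed. RSEM divides reads among models by likelihood, and read positions are not used here, so whether transcription starts at the internal site was not tested.

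**Figure D3:**
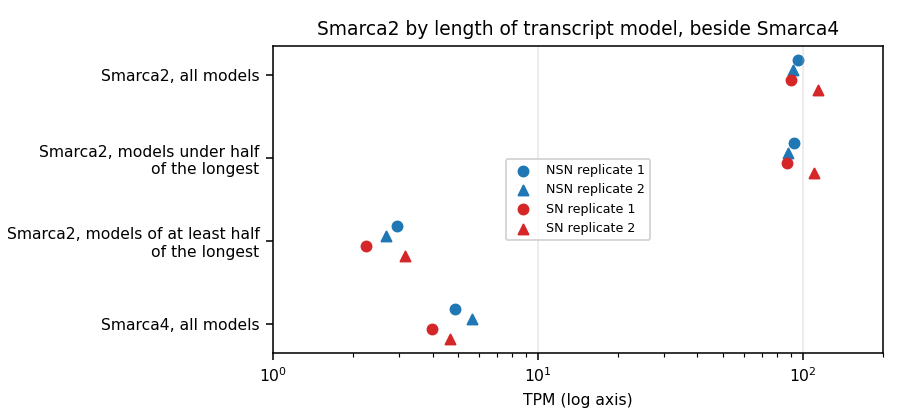
TPM (log axis) of all Smarca2 models, of its models under 50% and of at least 50% of the longest effective length, and of Smarca4, in each library (circles replicate 1, triangles replicate 2, blue NSN, red SN; the vertical offset only separates the points). The long Smarca2 models lie between 2.25 and 3.15 TPM and the short ones between 87.24 and 110.37 TPM, on either side of Smarca4.

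Short models led in 5 of the 35 genes of the group with at least 2 models that passed a minimum of 10 counts and 0.05 TPM (14.3%), against 728 of 6359 genes in the table (11.4%), a share near the background. These limits were set after the values had been seen. Beside Smarca2 the 5 were Mta3 (99.9% of its TPM on such models), Gatad2b (98.0%), Chd9 (96.1%) and Hells (93.9%). In them the most abundant short models with a matched annotation had coding sequences of 1539 and 1542 bases in Mta3, 2463 in Hells and 8655 in Chd9. The matched short model of Gatad2b, with 1782 coding bases, was seen in SN replicate 2 alone (1.28 TPM). No long model of these genes was matched, so no frame was compared with that of a long model. Counting only long models also turned the order in the set of Mta3 (0.10 TPM against 6.65 TPM for Mta1) and in that of Chd9. Long Chd9 models were at 0.375 TPM, against 5.35 to 6.06 TPM for Chd6, Chd7 and Chd8. With Smarca2 these were 3 of the 16 paralog sets. The limit followed longest models of 27641 effective bases in Chd9 and 5393 in Mta3. The short Chd9 model with 8655 coding bases has no shorter frame than the curated NM_177224.2, with 8607. The order in these 2 sets thus rests on the limit, and no shortened frame was shown for Chd9. In Mta3 a rarer matched model, NM_001171052.1, has 1758 coding bases, more than the 1539 and 1542 of the abundant models. It was at 0 and 0.21 TPM in NSN and 0.10 and 0.19 TPM in SN. Smarcad1, a SNF2 ATPase, had 42.5% of its TPM on short models, mostly on NM_001355249.1 (5.47, 2.59, 4.5 and 5.49 TPM), whose coding sequence has 219 bases where that of NM_007958.2 has 3063.

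The comparison of SN with NSN asked whether these mRNAs differ between the chromatin classes, and no subunit passed the test. With edgeR's quasi-likelihood test over 13426 genes and Benjamini-Hochberg adjustment at 0.05, 0 of the 54 subunits tested were called, and 0 genes in the table (0%). DESeq2 called 47 of the 672 genes to which its own filter on abundance left an adjusted p (6.99%), and Rbbp7 (adjusted p = 0.0871) was the only 1 of the 54 subunits among those 672, so that this count says nothing of the other 53. With the DESeq2 p-values adjusted over all 13426 genes, 13 genes (0.0968%) and 0 subunits were called. At an unadjusted p under 0.05 there were 7 subunits (13%), 3 higher and 4 lower in SN, beside 1004 of all genes (7.48%, with 4.01% higher and 3.46% lower). Their adjusted p was 0.662 in each case. The split of 3 and 4 changed with library size alone, where 0 were higher and 9 lower at that p. Under that setting Smarca2, Atrx and Chaf1b had smaller log2 values, still above 0, of 0.14, 0.11 and 0.10 (edgeR unadjusted p = 0.277, 0.377 and 0.527). Log2 fold changes (SN over NSN) were above 0 in 22 of 54 subunits and in 48% of all genes, with medians of -0.0573 and -0.011, while library size alone put 8 of 54 above 0, with medians of -0.204 and -0.154. Both libraries of one class lay above both of the other in 21 subunits (38.9%), 10 with SN above and 11 with NSN above, and in 39% of all genes (18.3% and 20.7%). Standard errors (SE) ran from 0.09 to 0.94 with a median of 0.11 on the log2 scale. Values in each library are given from here in CPM after TMM scaling, which compares a gene between libraries and not with other genes.

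**Figure D4:**
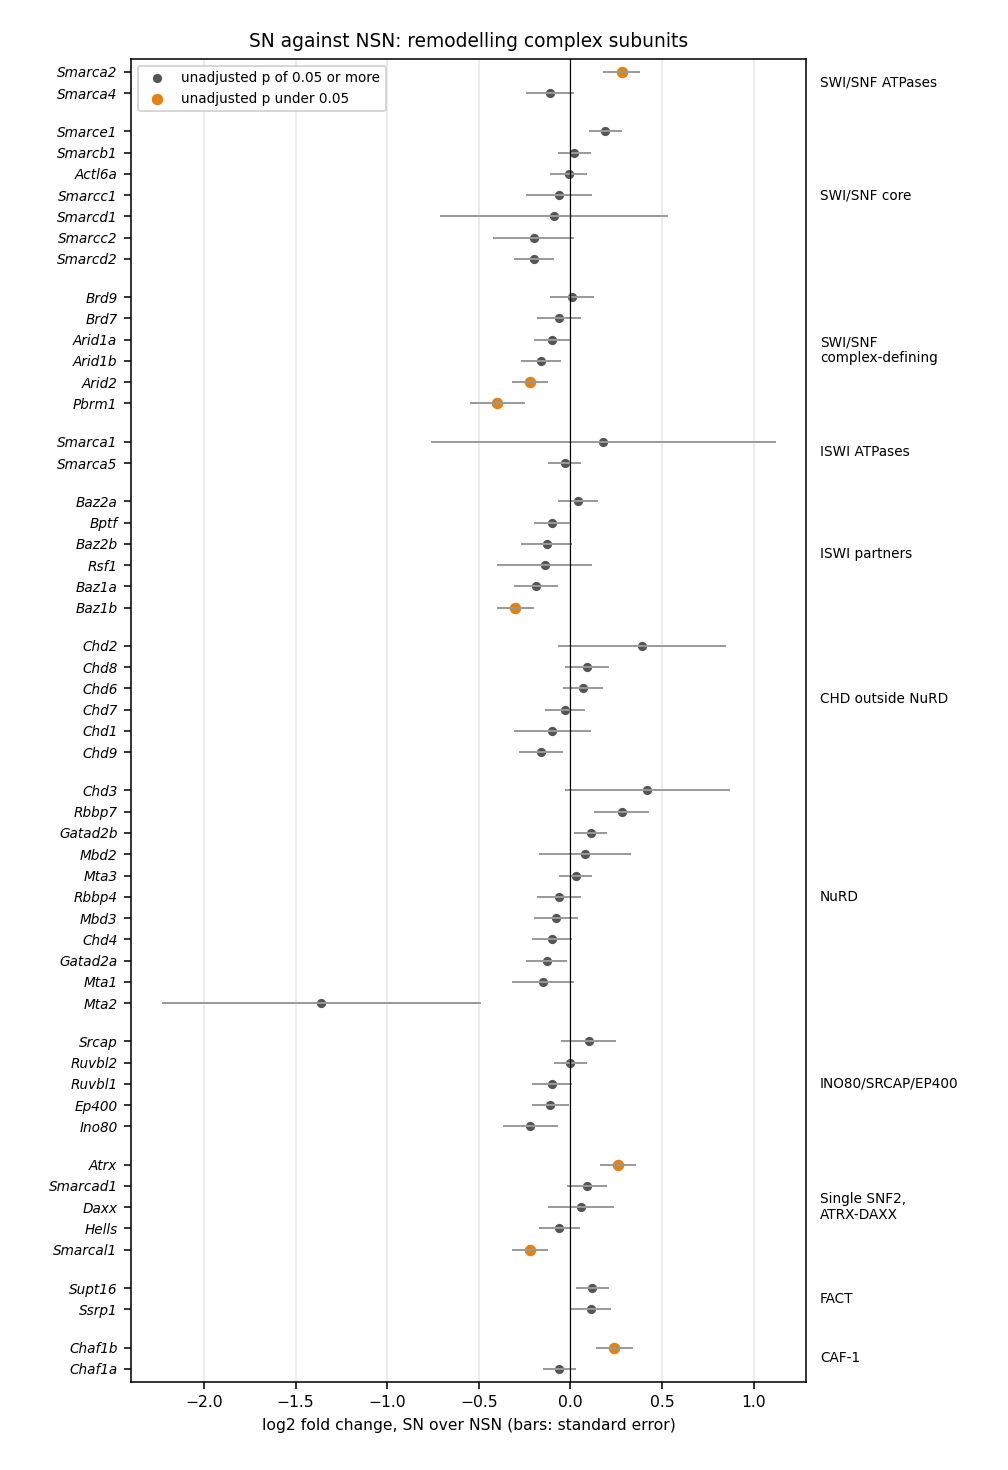
Log2 fold change (SN over NSN) of the 54 subunits tested, by complex, with bars of 1 standard error. Orange marks the 7 genes with an unadjusted p under 0.05, and no gene passed adjustment over all genes.

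Neither SWI/SNF ATPase passed the test. Smarca2 was at 118.2 and 103.1 CPM in NSN against 127.4 and 140.6 CPM in SN. In CPM both SN libraries were the higher, by 1.21-fold (log2 0.28, SE 0.10, unadjusted p = 0.0195, edgeR adjusted p = 0.662). In TPM the classes overlapped for Smarca2 as a whole (95.6 and 91.8 in NSN, 89.8 and 113.8 in SN). They overlapped for its long models (2.94 and 2.67 in NSN, 2.25 and 3.15 in SN). The short models, which carried nearly all of the gene's level, overlapped as well (92.4 and 88.1 in NSN, 87.2 and 110.4 in SN). Smarca4 was at 16 and 17.4 CPM in NSN against 15.0 and 15.8 CPM in SN, both NSN libraries above both SN libraries by less than the SE (log2 -0.11, SE 0.13, unadjusted p = 0.42 in edgeR). Of the 7 core and shared subunits tested, 2 had a positive and 5 a negative fold change, with a median of -0.0618 and none at an unadjusted p under 0.05. Smarcb1 was at 122.5 and 121.5 CPM in NSN against 128.5 and 118.5 CPM in SN, with overlapping classes (log2 0.02, SE 0.09), and the sign turned with the scaling. Smarcd2 was at 65.0 and 70.7 CPM in NSN against 63.1 and 54.8 CPM in SN, and Smarce1, the HMG-box subunit, at 67.8 and 64.4 against 76.1 and 74.3 CPM, each without overlap.

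Both SWI/SNF subunits on the list that were lower in SN at an unadjusted p under 0.05 belong to the PBAF form, and neither passed adjustment. Pbrm1 was at 18.8 and 18.9 CPM in NSN against 12.6 and 15.9 CPM in SN. Every SN value was below both NSN values, by 1.32-fold (log2 -0.40, SE 0.15, unadjusted p = 0.0176, edgeR adjusted p = 0.662). Arid2, the ARID subunit of PBAF, was at 69.2 and 74.3 CPM in NSN against 63.3 and 60.1 CPM in SN, again without overlap (log2 -0.22, SE 0.10, unadjusted p = 0.0433). Brd7, the third subunit of the form on the list, was at 40.3 and 50.7 CPM in NSN against 44.0 and 43.6 CPM in SN, so both SN values lay inside the NSN range (log2 -0.06, SE 0.12). Phf10, a PBAF subunit outside the list, also overlapped, at 5.99 and 6.74 CPM in NSN against 6.33 and 4.73 CPM in SN (log2 -0.21, SE 0.22). The cBAF subunits Arid1a and Arid1b had log2 values of -0.10 and -0.16 and the ncBAF subunit Brd9 0.01, with the signs of Arid1a and Brd9 turning when a library was left out. Pbrm1 depended on one library, with a log2 of -0.24 without SN replicate 1 and -0.58 without SN replicate 2.

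Neither ISWI ATPase differed beyond its error. Smarca5 was at 104.2 and 113.6 CPM in NSN against 105.3 and 108.3 CPM in SN (log2 -0.03, SE 0.09), and Smarca1 was too rare for a comparison (log2 0.18, SE 0.94), with -0.63 without NSN replicate 2. Of the 6 ISWI partners and BAZ proteins, 5 had a negative fold change, with a median of -0.132. Baz1b, the WSTF subunit of the WICH complex and a kinase of histone H2A.X, had the smallest unadjusted p of all 55 genes. It was at 47.9 and 50.5 CPM in NSN against 40.5 and 39.6 CPM in SN. The gap between the classes was wider than that within them, at 1.23-fold (log2 -0.30, SE 0.10, unadjusted p = 0.0137, edgeR adjusted p = 0.662). Bptf was at 102.0 and 115.3 CPM in NSN against 104.6 and 98.1 CPM in SN, with overlap. The 6 CHD ATPases outside NuRD were split at 3 and 3, from -0.16 in Chd9 to 0.39 in the rare Chd2, and none was without overlap. Chd9 was at 87.3 and 79.6 CPM in NSN against 64.5 and 84.7 CPM in SN, and the low value of SN replicate 1 set its sign (log2 0.03 without that library).

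NuRD subunits were split at 5 higher and 6 lower in SN, none at an unadjusted p under 0.05. Rbbp7 was at 1821 and 1983 CPM in NSN against 2442 and 2175 CPM in SN, a difference of 1.21-fold without overlap (log2 0.28, SE 0.15, unadjusted p = 0.0921, edgeR adjusted p = 0.708). Its log2 value was 0.04 with cyclic loess, a scaling that allows for a shift with abundance. Mta2 had the lowest fold change of the 54 (log2 -1.36, SE 0.87) on counts of 13 and 19 in NSN and 1 and 12 in SN, with -0.53 without SN replicate 1 and -3.80 without SN replicate 2. Mta3 was at 106.0 and 108.6 CPM in NSN against 109.0 and 110.7 CPM in SN (log2 0.03, SE 0.09; -0.11 with library size alone), and Chd4 had a log2 of -0.10 (SE 0.11). Gatad2b was at 115.8 and 113.9 CPM in NSN against 124.9 and 123.4 CPM in SN, a small gap without overlap (log2 0.11, SE 0.09; -0.03 with library size alone).

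The 5 genes of INO80, SRCAP and EP400 had a median of -0.0958 and none at an unadjusted p under 0.05. Ruvbl2 was at 141.1 and 141.0 CPM in NSN against 146.0 and 136.3 CPM in SN, centred on no difference (log2 0.00, SE 0.09). Among the single ATPases and the pair Atrx and Daxx, which deposits histone H3.3, 3 were higher and 2 lower. Atrx was at 127.3 and 144.8 CPM in NSN against 163.9 and 160.9 CPM in SN. The classes did not overlap, with a difference of 1.19-fold (log2 0.26, SE 0.10, unadjusted p = 0.0232, edgeR adjusted p = 0.662), whereas Daxx was at 0.06 (SE 0.18) on the log2 scale and turned negative with library size alone. Smarcal1, an annealing helicase of stalled replication forks, was at 57.4 and 58.1 CPM in NSN against 50 and 49.5 CPM in SN. Replicates were within 1 CPM of each other and the classes apart by 1.16-fold (log2 -0.22, SE 0.10, unadjusted p = 0.0477). Hells was at 48.2 and 56.1 CPM in NSN against 48.6 and 51.8 CPM in SN, with overlap (log2 -0.06, SE 0.11).

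Both FACT subunits were slightly higher in SN without overlap. Supt16 was at 97.3 and 100.8 CPM in NSN against 106.8 and 107.9 CPM in SN (log2 0.12, SE 0.09, unadjusted p = 0.226), and Ssrp1 at 30.1 and 30.7 against 31.7 and 34.0 CPM (log2 0.11, SE 0.11, unadjusted p = 0.337), neither passing edgeR's test. Both turned to -0.03 with library size alone. In CAF-1, Chaf1b was at 49.9 and 46.3 CPM in NSN against 59.1 and 54.7 CPM in SN. That was 1.18-fold higher without overlap (log2 0.24, SE 0.10, unadjusted p = 0.0368, edgeR adjusted p = 0.662). Its partner Chaf1a was at 138.5 and 132.5 CPM in NSN against 135.2 and 124.2 CPM in SN, with overlap (log2 -0.06, SE 0.09).

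**Figure D5:**
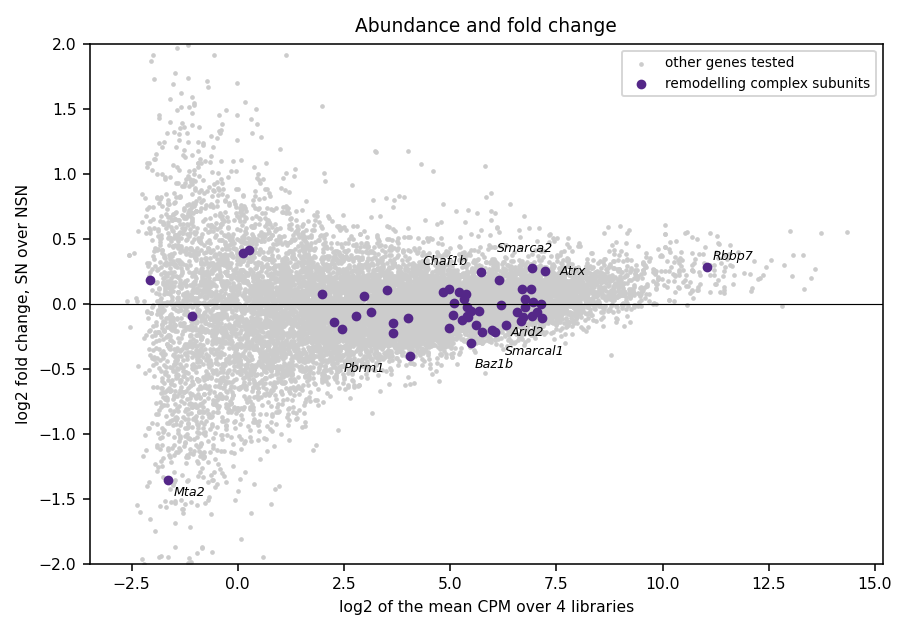
Log2 fold change (SN over NSN) against the log2 of the mean CPM over 4 libraries for all genes tested (grey) and the 54 subunits (purple), with 38 genes outside the plotted range of 2 on either side. The 7 subunits with an unadjusted p under 0.05, Rbbp7 and Mta2 are named, and the subunits lie within the spread of genes of like abundance.

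Other subunits of the same complexes, and other SNF2-family ATPases, were taken from a list of 57 symbols, of which Actl6b had no row and Mbd3l1 was under the filter. Of the 55 tested, 0 were called, 27 had a positive fold change, the median log2 was -0.0218, and 5 (9.09%) had an unadjusted p under 0.05, 3 higher and 2 lower. Pole3, a histone-fold subunit shared by the CHRAC complex and DNA polymerase epsilon, was at 20.4 and 17.9 CPM in NSN against 25.6 and 28.8 CPM in SN. It had the smallest p of either list and did not overlap (log2 0.51, SE 0.13, unadjusted p = 0.00218, edgeR adjusted p = 0.609). Mrgbp, of the TIP60/EP400 complex, was at 49.4 and 46.6 CPM in NSN against 65.2 and 52.1 CPM in SN (log2 0.29, SE 0.12), with a log2 of 0.12 without SN replicate 1 and 0.44 without SN replicate 2. Vps72, which binds H2A.Z in SRCAP and EP400, was at 85.2 and 79.0 CPM in NSN against 92.9 and 96.9 CPM in SN (log2 0.21, SE 0.09). All 3 were higher in both SN libraries. In the other direction Dpf1, a neural BAF subunit, was at 0.722 and 1.03 CPM in NSN against 0.362 and 0.242 CPM in SN (log2 -1.53, SE 0.60), and Mbtd1, of TIP60/EP400, at 248.7 and 259.9 against 224.1 and 208.0 CPM (log2 -0.24, SE 0.10). Zranb3, an annealing helicase related to Smarcal1, was at 9.27 and 8.74 CPM in NSN against 7.23 and 6.93 CPM in SN (log2 -0.35, SE 0.18). Each of these was lower in both SN libraries. By level, the NuRD-associated Cdk2ap2 (mean 796.5 TPM) and the BAF subunit Bcl7c (220.3 TPM) were the most abundant of the list.

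The division of a gene's counts among its transcript models was tested in 37 subunits by edgeR's diffSpliceDGE with a Simes p per gene. No subunit was called, where 27 of 7000 genes were (0.386%), and 4 had an unadjusted Simes p under 0.05, beside 6.33% of all genes. By edgeR these were Chd8 (unadjusted p = 0.00831), Chd4 (0.0186), Brd9 (0.0304) and Bptf (0.0329), with edgeR adjusted p of 0.377, 0.546, 0.677 and 0.687. Gatad2a came next (unadjusted p = 0.0561, edgeR adjusted p = 0.835). In each the leading model was a minor one listed at 0 in both libraries of a class. For Chd8, the model XM_017316170.2 was listed at 0 and 0 TPM in NSN and 0.61 and 0.49 TPM in SN, where the main model NM_201637.3 was at 5.48, 6.43, 5.01 and 5.10 TPM. For Bptf, NM_176850.3 was at 0.80 and 0.32 TPM in NSN and listed at 0 in SN, and for Chd4, XM_006505286.1 was at 0.31 and 0.79 TPM in NSN and listed at 0 in SN. For Brd9, XM_006517026.3 was listed at 0 in NSN and was at 0.42 and 0.47 TPM in SN, and for Gatad2a, XM_030243464.1 was listed at 0 in NSN and was at 2.32 and 0.73 TPM in SN. A listed 0 can be a failed division of reads among near-identical models, so no fold is given.

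The authors' deposited table holds their own log2 ratio and unadjusted p-value for each model. In the authors' deposited table, 33 of 276 models of the subunits had a p under 0.05 (12%), 15 higher and 18 lower in SN and spread over 18 genes, beside 4001 of 47854 models in all (8.36%, with 4.43% higher and 3.93% lower). Of those 33 models in the authors' deposited table, 20 (60.6%) were listed at 0 TPM in both libraries of a class, 10 in NSN and 10 in SN, where the share over all such models was 37.7%. Among models seen in both classes, the smallest p in the authors' deposited table was that of the short Smarca2 model XM_030251051.1 (log2 0.55, p = 1.25e-06). Another short Smarca2 model, XM_030251050.1, has a like effective length (1524 against 1522 bases). It was at 36.5 and 31.9 TPM in NSN and 25.6 and 35.9 TPM in SN. The division among Smarca2 models had an unadjusted Simes p of 0.981 in edgeR, and how reads were divided between these 2 models was not tested. Next in the authors' deposited table came the Rbbp7 model NM_009031.3 (log2 0.42, p = 0.000114). That Rbbp7 model was at 847.1 and 1042 TPM in NSN and 1091 and 1160 TPM in SN, while the other main model, XM_030251353.1, was at 432.9 and 480.2 TPM in NSN and 371.8 and 331.9 TPM in SN. The first was higher and the second lower in both SN libraries, and the division between the models of Rbbp7 had an unadjusted Simes p of 0.0593 (edgeR adjusted p = 0.858).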

How the data were processed

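The members and gene lists, the tests and the rule for named genes were chosen with earlier results of these data known. That rule names the most abundant gene of each group, genes at an unadjusted p under 0.05, both ends of each paralog set, genes under the filter, the 3 other subunits with the smallest p in each direction and the 5 smallest Simes p. Per the submitters' processing notes the tools were HISAT2, Bowtie2 and RSEM and the build was mm10; roles, versions and strand are not given in the sources used here. The authors deposited estimated counts, TPM and FPKM per transcript model, per the file headers, and 59.8% of the estimated counts are not whole. The deposited normalized read counts, a depth-scaled signal, and the FPKM were not tested. The authors' log2 ratio and p-value per model were deposited with the tool not given in the sources used here.

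Estimated counts were summed per gene ID and rounded. Genes were kept by filterByExpr, scaled by TMM and tested with edgeR 4.0.16 (robust quasi-likelihood, two-sided) in R 4.3.3, with Benjamini-Hochberg adjustment and a threshold of 0.05. CPM are counts over TMM-scaled library totals. Floors (3 counts) cover counting error only, as PCR reads are not independent molecules. Standard errors were derived from the quasi-likelihood fit and take in the spread between libraries. TPM were summed per gene. Alternatives were DESeq2 1.42.0 (test and size factors), library size alone, no filter, cyclic loess and log2(TPM + 1) or log2(TPM + 0.1) with limma 3.58.1, a replicate block and each library left out. Steps were tested on simulated data. For genes, changes were placed only in genes with a mean of at least 5 CPM. Of these, 56.7% of 1.5-fold and 98.5% of 2-fold changes were recovered, with 6 false calls among 13426 genes. The spread used there was changed after a first run had given more false calls, so the 6 understates the error rate. For model shares, the most abundant model of a gene was raised 4-fold and the next lowered 4-fold, with 1 fixed spread for all models. Only models of at least 5 CPM were changed, so the recovery does not cover rarer models or smaller shifts. Of 60 such genes 98.3% were recovered, with 14 false calls among 7000 genes. Gene locations and promoters are from RefSeq (GRCm38.p6), transcript coordinates from GENCODE M21 (GRCm38).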

Additional observations from a re-analysis of the deposited data

How the results depend on the processing

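No subunit was called under any of the 13 alternatives for genes or the 7 for model shares, though with its own filter DESeq2 gave an adjusted p to 1 subunit alone. The number of all genes called was 0 as reported, 47 with DESeq2, 13 with its p-values adjusted over all genes (an alternative chosen after seeing the data), 15 with library size alone, 15 without the filter, 47 on log2(TPM + 1), 45 on log2(TPM + 0.1), and 2 to 290 with a library left out, 31 without SN replicate 1 and 290 without SN replicate 2. For model shares it was 27 as reported, 12 without the filter and 2 to 10 with a library left out. The replicate block gave 44 genes and 2 model-share calls; the labels share only a number, and same-numbered libraries deviated with a correlation of 0.029, so nothing is read from it. The subunits at an unadjusted p under 0.05 numbered 7 as reported and 2 to 9 over the alternatives, 2 without NSN replicate 2 and 3 without SN replicate 1. Their Simes counterparts numbered 4 as reported and 1 to 4 over the alternatives.

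Library size alone, log2(TPM + 1) and log2(TPM + 0.1) moved the median of all genes to -0.154, -0.133 and -0.179, and the subunits with it to -0.204, -0.176 and -0.214, with 8, 10 and 9 of 54 higher in SN. In that order of settings, Mta3 was at -0.11, -0.14 and -0.14, Brd9 at -0.14, -0.15 and -0.16, Daxx at -0.08, -0.09 and -0.10, Gatad2b and Ssrp1 each at -0.03, -0.06 and -0.06, Smarcb1 was at -0.13, -0.16 and -0.16, Supt16 at -0.03, -0.06 and -0.06, and Ruvbl2 at -0.15, -0.18 and -0.18, signs opposite to those reported. Cyclic loess gave a value that rounds to 0.0 for Mta3, -0.03 for Smarcb1 and -0.05 for Ruvbl2. With each library left out, the median of the subunits ran from -0.0843 to 0.00647, Brd7 from -0.21 to 0.12, Hells from -0.16 to 0.06 and Smarca5 from -0.09 to 0.04, each positive without NSN replicate 2, as was Arid1a (-0.21 to 0.03). Daxx ran from -0.04 to 0.18, Brd9 from -0.11 to 0.14 and Smarca1 from -0.63 to 2.08. Smarcb1 ran from -0.04 to 0.08, Ruvbl2 from -0.04 to 0.05 and Chd9 from -0.37 to 0.03, with the sign opposite to that reported without SN replicate 1. Ruvbl2, at 0.0 as reported, changed the sign of a value that rounds to 0.0 without the filter, with the block and without NSN replicate 2. The cause was not tested. Of the 37 genes run through these alternatives, 23 did not change sign in any and 14, those named here, did. With 2 libraries a class and a median SE of 0.11, small differences are at the limit of the design.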
